A study of Prunus yedoensis with 90 samples.

Results

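The 100 genes described here were chosen by their measured levels in buds of Somei-yoshino cherry trees at Tsukuba, relative to trees at Fukuoka and Hokkaido. They were taken from 40161 genes with a mean bud level of at least 1 TPM (a measure of transcript abundance scaled for gene length and library total), out of 95076 gene IDs in the deposited table. For each site, log2(TPM + 1) was averaged over the 10 months from June to March. A gene was kept when Tsukuba exceeded the higher of the other sites by at least 0.5, when Fukuoka and Hokkaido differed by less than 0.8, and when the monthly mean over all trees ranged over less than 3. Of the 539 genes that met these conditions, the 100 with the largest Tsukuba difference were taken. The working name of the set was bud genes higher in Tsukuba all year, and the data went against that name: 5 of the 100 genes were above both other sites in all 10 months. They are therefore called Tsukuba-high bud genes below, which refers to the mean over the months.

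The study followed apical buds and leaves of Cerasus × yedoensis ‘Somei-yoshino’ through 1 cycle, from June 2018 to April 2019, at 3 sites in Japan. Each site had 2 trees, at Tsukuba in central Japan, Fukuoka in the south and Hokkaido (Sapporo) in the north, called #1 and #2 here after the replicate number in the labels. Every tree gave 11 bud libraries and 4 leaf libraries, the leaf libraries from June to September, or to 29 August at Fukuoka, so the series held 66 bud and 24 leaf libraries. No tree received a treatment, and the site is represented by its 2 trees. Except for April buds, the p-values therefore measure the spread between trees, and site cannot be told apart from the individual trees, their age or their surroundings.

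Somei-yoshino is a cultivar propagated by grafting, so its trees are regarded as 1 clone. In flowering cherries, buds are formed in summer, become dormant in autumn, are released from dormancy by winter chilling, and grow out as spring warms. The timing of these steps follows temperature and day length and so differs between southern and northern sites. The gene IDs carry no gene names in the sources used here, so the genes are described by their IDs and levels, and the tissue labels were not checked against marker genes.

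Over the bud libraries of June to March, the median number of genes above 1 TPM was 38227 in Tsukuba, 38676.5 in Fukuoka and 38611.5 in Hokkaido libraries, and the 100 most abundant genes took a median of 16.4%, 16.6% and 15.8% of TPM at these sites. In October the median bud gene was nevertheless lower at Tsukuba, by -0.35 against Fukuoka and -0.32 against Hokkaido on the log2(TPM + 1) scale. No pair of libraries was a copy of another, the highest correlation between libraries being 0.985. Read depth is unknown, since TPM does not keep it.

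The Tsukuba-high genes were mostly well expressed in buds. Their mean bud level ran from 2.01 to 839 TPM with a median of 41.0 TPM, against a median of 8.77 TPM over all bud genes, and 84 of the 100 reached 5 TPM. Together they made up 1.28% of all TPM in Tsukuba buds, against 0.519% in Fukuoka and 0.330% in Hokkaido buds of the same months. In these whole buds, a larger share of cells that express a gene and more RNA per cell cannot be told apart.

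The Tsukuba difference that chose the genes ranged from 1.03 to 2.15 on the log2(TPM + 1) scale, with a median of 1.26, against a median of -0.15 over all bud genes. Bud values of June to March come from the libraries that chose the genes and, unless a test is named, are a description. The median gene was 1.31 higher at Tsukuba than at Fukuoka and 1.61 higher than at Hokkaido, against -0.07 and -0.07 over all bud genes. Between the other sites, Fukuoka was above Hokkaido for 78 of the 100 genes, against 50.5% of all bud genes, and the median size of that difference was 0.27. The last genes taken were CYE_r3.1SPA5_g013470.1, with a difference of 1.03 and a mean of 7.10 TPM, and CYE_r3.1SPA1_g032660.1, with 1.03 and 66.3 TPM. The first left out were CYE_r3.1SPE3_g027940.1 and CYE_r3.1SPE7_g020090.1, both with a difference of 1.02.

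Both Tsukuba trees carried the difference. The mean of each Tsukuba tree was above those of the 4 other trees for 96 of the 100 genes, which 12.4% of all bud genes showed. The difference to the higher other site had a median of 1.26 in tree #1 and 1.37 in tree #2, and it reached 0.5 in 95 genes in tree #1 and in all 100 in tree #2. Neither tree was regularly the higher one, with tree #1 above tree #2 in 48 genes. By the library numbers in the labels, tree #2 of Tsukuba and tree #2 of Hokkaido belong to 1 run of numbers. Within that run all 100 genes were higher in the Tsukuba tree, against 42.9% of all bud genes. The median was 1.66, against a median of -0.05 over all bud genes. The rule asked for a higher Tsukuba mean over these same libraries, so the counts by tree were largely set by it and are a description.

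The gene with the largest difference was CYE_r3.1SPE4_g035270.1. Its bud level had a lowest, median and highest value of 28.4, 84.1 and 239 TPM in the 20 Tsukuba libraries, 3.38, 15.9 and 99.5 TPM in the Fukuoka libraries, and 6.05, 15.2 and 91.9 TPM in the Hokkaido libraries. The tree means averaged 108 ± 12.5 TPM at Tsukuba, 29.9 ± 11.8 TPM at Fukuoka and 25.1 ± 7.32 TPM at Hokkaido (SD, n = 2 trees each). The ranges of single libraries overlapped between sites, while both Tsukuba tree means lay above those of the 4 other trees. In June it stood at 31.1 and 31.6 TPM in the Tsukuba trees, against 45.3 and 18.3 TPM in the Fukuoka trees and 6.05 and 7.14 TPM in the Hokkaido trees. In October it stood at 238 and 210 TPM in the Tsukuba trees, against 12.3 and 12.4 TPM in the Fukuoka trees and 27.2 and 29.7 TPM in the Hokkaido trees. Tsukuba thus lay within the Fukuoka values in June and far above all others in October.

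The next genes in order were CYE_r3.1SPA0_g033350.1 and CYE_r3.1SPE4_g002590.1, with differences of 2.15 and 2.14, whose values were almost the same in every library (r = 0.999947 over the 90 libraries). The mean over trees of CYE_r3.1SPA0_g033350.1 was 137 ± 1.51 TPM at Tsukuba, 43.4 ± 18.2 TPM at Fukuoka and 15.8 ± 1.68 TPM at Hokkaido (SD, n = 2 trees each). Its October level was 335 and 357 TPM in the Tsukuba trees, against 15.6 and 18.1 TPM in the Fukuoka trees and 5.23 and 8.14 TPM in the Hokkaido trees. In July it was 47.4 and 136 TPM in the Tsukuba trees and 132 and 77.2 TPM in the Fukuoka trees, so these groups overlapped, with 27.5 and 18.4 TPM in the Hokkaido trees below both. The gene with the 4th largest difference, CYE_r3.1SPA4_g034860.1, had a difference of 2.04 and a mean of 132 ± 13.2 TPM in the Tsukuba trees.

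The most abundant gene of the set was CYE_r3.1SPE8_g035100.1, with 1378 ± 104.4 TPM at Tsukuba, 725 ± 71.1 TPM at Fukuoka and 509 ± 18.3 TPM at Hokkaido (SD, n = 2 trees each). Its mean was higher at Tsukuba by 1.90-fold over Fukuoka and 2.71-fold over Hokkaido. It was above both other sites in 7 of the 10 months. The exceptions were June, July and January, and in January it stood at 939 and 898 TPM in the Tsukuba trees, 1087 and 1086 TPM in the Fukuoka trees and 772 and 846 TPM in the Hokkaido trees. The next, CYE_r3.1SPE1_g029200.1, averaged 978 ± 40.7 TPM at Tsukuba, 366 ± 75.7 TPM at Fukuoka and 249 ± 0.980 TPM at Hokkaido (SD, n = 2 trees each). Its October level of 2412 and 2348 TPM in the Tsukuba trees stood against 133 and 284 TPM in the Fukuoka trees and 285 and 374 TPM in the Hokkaido trees.

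**Figure D1:**
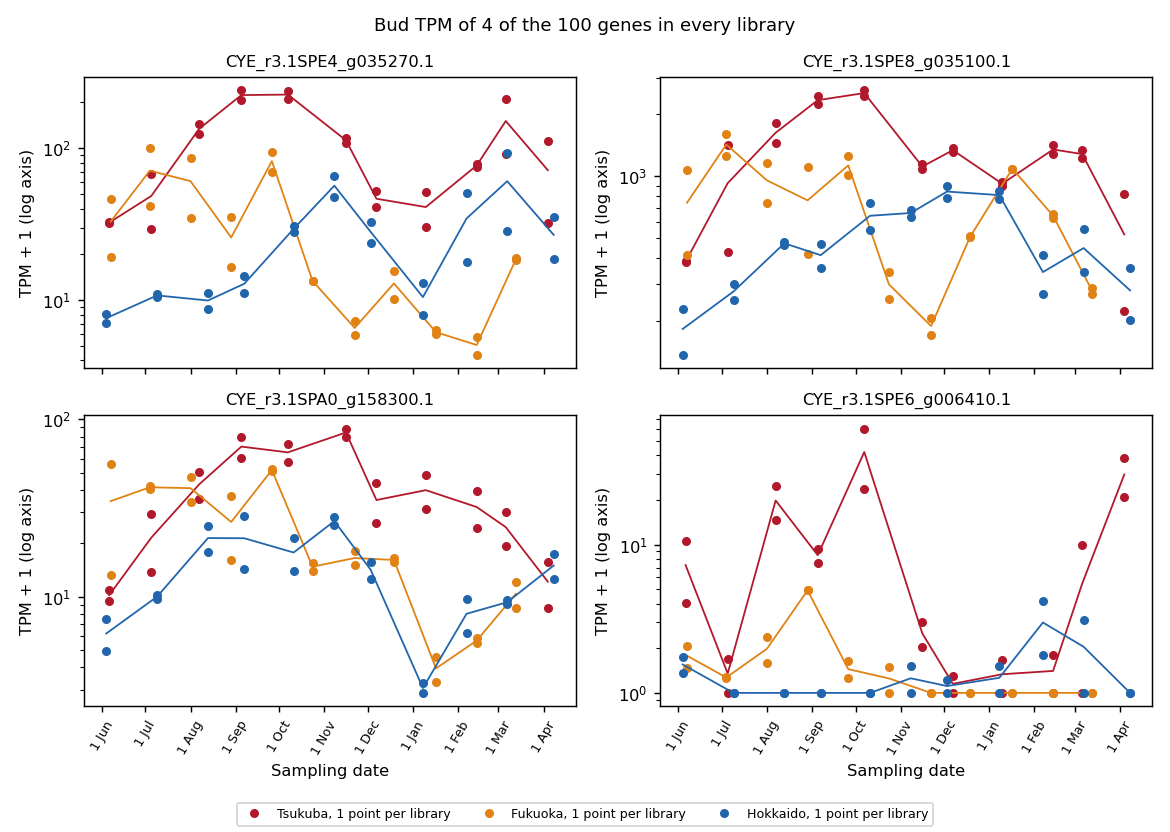
Bud TPM + 1 on a log axis against the sampling date for 4 of the genes; each point is 1 library and each line joins the site means, with Tsukuba in red, Fukuoka in orange and Hokkaido in blue. In October the top left gene stood at 238 and 210 TPM in the Tsukuba trees, above all libraries of the other sites, while in June the Tsukuba and Fukuoka points overlap.

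Taken against the higher other site, the Tsukuba difference was absent in early summer and widest in autumn. The median difference to the higher other site was -0.34 in June and -0.45 in July, 0.81 in August, 1.18 in September, 2.58 in October and 1.83 in November. From December to March it lay between 1.02 and 1.14. Over all bud genes the same median lay between -0.45, in October, and -0.08, in March. Tsukuba was above both other sites in 28 genes in June and 21 in July, against 35.7% and 26.2% of all bud genes. The number was 96 in August, against 21.7%, and all 100 in October, against 23.1%. In the months from November to March it was 85 to 99, against 18.6% to 40.6%. October held the largest monthly difference for 68 of the genes and November for 16, whereas June held the smallest for 48 and July for 37.

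Counted by libraries that do not overlap, both Tsukuba libraries were above the 4 others for 8 genes in June and 2 in July, against 16.2% and 8.37% of all bud genes. The count was 69 in August, against 7.23% of all bud genes, 80 in September, against 10.3%, 99 in October, against 13.4%, and 93 in November, against 16%. In December it was 69, against 20.2%, in January 76, against 9.78%, in February 64, against 6.73%, and in March 69, against 18.7%. A gene was above both other sites in a median of 8 months and in at least 5. It was above them in at least 9 months for 26 genes and in all 10 months for 5, which 0.0822% of all bud genes showed. No gene reached a difference of 0.5 in every month.

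**Figure D2:**
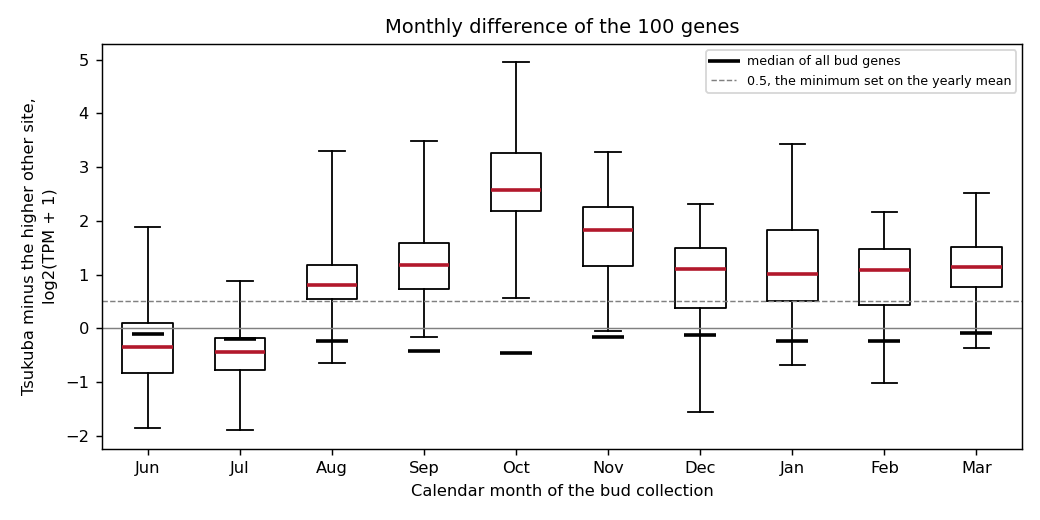
Difference between the Tsukuba mean and the higher other site, in log2(TPM + 1), for each month; boxes span the quartiles of the 100 genes, whiskers their full range, red lines their medians, and black bars the medians of all bud genes. The gene medians are -0.34 in June and -0.45 in July, 2.58 in October, and between 1.02 and 1.14 from December to March.

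The 2 other sites entered this pattern at different times. Against Fukuoka, the Tsukuba mean was lower in June and July, by medians of -0.34 and -0.45. Below Fukuoka lay 71 and 76 of the 100 genes, against 45.1% and 33.8% of all bud genes. The trees of the sites overlapped, however. In June the median level was 4.96 and 3.92 in the Fukuoka trees and 4.18 and 4.34 in the Tsukuba trees. In July it was 5.53 and 4.79 in the Fukuoka trees and 3.96 and 5.30 in the Tsukuba trees. The Tsukuba libraries lay below both Fukuoka libraries for 26 and 24 genes in these months, against 25.4% and 16.8% of all bud genes. In October and November Tsukuba was higher than Fukuoka by medians of 3.03 and 3.12. The October buds were taken on 7 October at Tsukuba and on 24 October at Fukuoka. On 26 September, the Fukuoka date nearest to 7 October, the median level there was 5.96, against 7.13 at Tsukuba on 7 October. Against Hokkaido, Tsukuba was already higher in June and July, by medians of 0.74 and 1.04. In these months 84 and 94 genes were higher at Tsukuba, against 53.7% and 36.8% of all bud genes. The difference to Hokkaido was 2.93 in September and 1.83 in November. In October the difference against both sites thus ran against that of the median bud gene, which was lower at Tsukuba.

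Read as levels, the set moved over the year at each site, at different heights and dates. At Tsukuba the median level on the log2(TPM + 1) scale was 4.18 in June, 7.13 in October, 4.73 in December and 5.32 in March. At Fukuoka it was 4.46 in June, 5.96 on 26 September, 3.12 in November and 3.40 in March. At Hokkaido it was 3.21 in June, 4.93 in November, 3.37 in January and 4.02 in March. The highest month fell between September and November for 97 of the genes at Tsukuba, against 17.0% of all bud genes, and between July and September for 90 at Fukuoka, against 17.0%. Between September and November it fell for 59 of the genes at Fukuoka, against 14.5%. At Hokkaido it fell in those months for 59 as well, against 19.2%, with 48 of them in November. The median range over the months was 3.42 at Tsukuba, 3.12 at Fukuoka and 2.27 at Hokkaido, against 1.33, 1.33 and 1.36 over all bud genes.

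**Figure D3:**
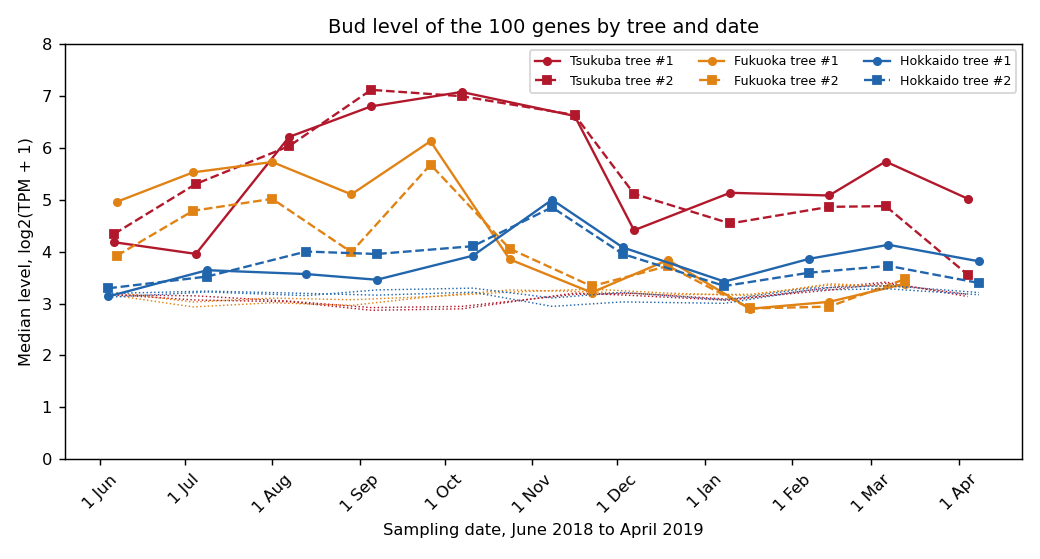
Median level of the 100 genes in log2(TPM + 1) against the sampling date, 1 solid or dashed line per tree, with the medians of all bud genes as dotted lines in the same colours. The genes reach a site median of 7.13 at Tsukuba in October and 4.93 at Hokkaido in November, and at Fukuoka the line falls between 26 September and 24 October.

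Collection dates differed within a month. The October buds were taken on 7 October at Tsukuba, 24 October at Fukuoka and 11 October at Hokkaido, and the September buds on 5, 26 and 7 September. October alone gave a median of 26.5% of a gene's summed difference. Without October all 100 genes still had a difference of at least 0.5, with a median of 1.13, and 96 met the whole rule. With the Fukuoka dates nearest to those of Tsukuba, which are 29 August and 26 September, the median difference was 1.25, the lowest was 0.65, and 90 genes met the whole rule. The Fukuoka buds of 29 August took no part in the site means, though they counted in the filter on mean bud level. The Tsukuba buds of 5 September entered the site means, so the comparison of these dates is a description. These Tsukuba buds were above both Fukuoka libraries of 29 August for 95 of the 100 genes, against 18.4% of all bud genes. The median difference was 2.39, against -0.12 over all bud genes.

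Several of the IDs were not independent measurements. In 8 pairs the values differed by less than 0.05 on average on the log2 scale over the 90 libraries, and counting each such pair once leaves 92 IDs. At a correlation of at least 0.99, 34 of the genes fell into 15 groups. Such pairs can share reads between near-identical copies, and the labels do not say how the authors' counting split these reads. The closest pair of 1 SPA and 1 SPE ID was CYE_r3.1SPA0_g039290.1 and CYE_r3.1SPE0_g035810.1 (r = 0.999982). Their tree means at Tsukuba were unequal, with 3.55 TPM in tree #1 and 13.2 TPM in tree #2 for the SPA ID. At a correlation of at least 0.95, 73 of the genes fell into 21 groups, the largest of 24 genes. These correlations are over libraries that share sites and dates. The IDs begin with SPA for 49 of the genes and with SPE for 51, against 52.1% and 47.9% of all bud genes. In 5 cases the set held consecutive IDs, among them CYE_r3.1SPA3_g028710.1 with its neighbour and CYE_r3.1SPE3_g028570.1 with its own.

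Leaves, which took no part in the choice, were compared to ask whether the site difference was present in another tissue of the same trees. Of the 100 genes, 70 had a mean leaf level of at least 1 TPM and were tested, and the 30 below it were not. In leaves the median gene was higher at Tsukuba than at Hokkaido and close to Fukuoka. The median difference of the 70 genes was 0.54 for Tsukuba minus Hokkaido, against 0.08 over all leaf genes tested, and 0.03 for Tsukuba minus Fukuoka, against 0.00. The median level of all 100 genes in log2(TPM + 1) was 1.71 and 1.87 in the Tsukuba trees, 1.81 and 1.72 in the Fukuoka trees and 1.45 and 1.52 in the Hokkaido trees. These comparisons share the Tsukuba libraries.

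For Tsukuba minus Hokkaido in leaves, 26 of the 70 genes rose, against 7.49% of all leaf genes, and 1 fell, against 5.87%. With each near-identical pair counted once, 24 of 65 rose. A call means an adjusted p under 0.05 over all genes tested (limma on tree means) and a change of at least 0.5. The largest rise was that of CYE_r3.1SPA4_g034860.1, with tree means of 86.5 and 33.0 TPM at Tsukuba, against 3.13 and 6.88 TPM at Hokkaido (change 2.97, SE 0.41, adjusted p = 0.00546). The gene with the largest bud difference, CYE_r3.1SPE4_g035270.1, had leaf means of 75.7 and 31.5 TPM in the Tsukuba trees, against 3.35 and 6.33 TPM in the Hokkaido trees (change 2.85, SE 0.36, adjusted p = 0.00442). In the Fukuoka trees its leaf means were 105 and 68.0 TPM, and the Tsukuba values did not pass the test against them (change -1.06, adjusted p = 0.279). The gene that fell was CYE_r3.1SPE8_g018130.1, with 0.687 and 0.527 TPM in the Tsukuba trees, against 1.85 and 2.80 TPM in the Hokkaido trees (change -0.96, adjusted p = 0.0481 in limma), a call that held in 6 of 13 alternatives, with adjusted p-values up to 0.187. Within the runs of library numbers, 57 of the 70 genes were higher in tree #1 of Tsukuba than in tree #1 of Hokkaido, and 64 were higher in tree #2 of Tsukuba than in tree #2 of Hokkaido, against 56.9% and 61.6% of all leaf genes. The count of calls dropped to 12 without either Tsukuba tree and to 10 without Hokkaido tree #1.

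For Tsukuba minus Fukuoka in leaves, 36 of the 70 genes were above 0 and 34 below, with 51.0% of all leaf genes above 0. An unadjusted p under 0.05 in either direction (limma) was seen for 28, against 11.8% of all leaf genes. In the test, 0 of the 70 genes rose, against 0.129% of all leaf genes, and 1 fell, against 0.0985%. The gene that fell was CYE_r3.1SPA1_g010050.1, with tree means of 14.3 and 6.50 TPM at Tsukuba, against 33.0 and 82.3 TPM at Fukuoka (change -1.86, SE 0.20, adjusted p = 0.0451). This call held in 5 of 14 alternatives. It was lost under both other scalings of the libraries, with a pseudocount of 0.1, with no filter and with the replicate number as a block. It was also lost without Tsukuba tree #2, either Fukuoka tree or Hokkaido tree #2. Against the mean of both other sites, 50 of the 70 genes were above 0, against 58.1% of all leaf genes. An unadjusted p under 0.05 in either direction (limma) was seen for 34, against 19.2%. By the calls, 3 of the 70 genes rose, against 2.44% of all leaf genes, and 0 fell, against 1.37%. The largest of these rises were those of the near-identical pair CYE_r3.1SPE4_g002590.1 (change 1.62, SE 0.20, adjusted p = 0.0146) and CYE_r3.1SPA0_g033350.1 (adjusted p = 0.015). The leaf means of CYE_r3.1SPA0_g033350.1 were 7.90 and 12.1 TPM in the Tsukuba trees, 3.73 and 2.16 TPM in the Fukuoka trees and 3.56 and 3.78 TPM in the Hokkaido trees, so both Tsukuba trees lay above the other 4. No gene passed without Tsukuba tree #1, without Tsukuba tree #2, or without either Fukuoka tree, and 10 passed without Hokkaido tree #2.

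April buds of Tsukuba and Hokkaido also took no part in the site means, though they counted in the filter on mean bud level. The trees at Tsukuba parted in April. The median level of the 100 genes in log2(TPM + 1) was 5.02 in tree #1 and 3.56 in tree #2 at Tsukuba, against 3.81 in tree #1 and 3.40 in tree #2 at Hokkaido. The first Tsukuba tree thus stood above both Hokkaido trees, and the other lay between them. The median difference was 0.39, against -0.02 over all bud genes. At Tsukuba 80 of the 100 genes were higher, against 47.7% of all bud genes. In the test, 9 genes rose, against 2.57% of all bud genes, and 0 fell, against 3.33%. With each near-identical pair counted once, 7 of 92 rose. An unadjusted p under 0.05 in either direction (limma) was seen for 22 genes, against 21.6% of all bud genes. The spread of this test came from the 2 libraries of each site and date over all 66 bud libraries, in which the same 6 trees recur without a tree term, so its p-values can be too small. Fitted on the 4 April libraries only, a setting chosen after seeing the data, 0 of the 100 genes and 12 of all bud genes passed in limma, with 14 of the 100 at an unadjusted p under 0.05, against 18% of all bud genes. Without Tsukuba tree #1 the median difference was -0.26, and without Tsukuba tree #2 it was 1.19. Without Hokkaido tree #1 there were 4 calls, and without Hokkaido tree #2 there were 5.

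The gene with the largest April rise was CYE_r3.1SPE6_g006410.1, with 19.9 and 37.4 TPM in the Tsukuba trees, while it was listed at 0 in both Hokkaido trees (change 4.82). It was a low gene over the year, with a median of 1.51 TPM in the Tsukuba buds of June to March and of 0 in those of both other sites. It met the filter on mean bud level mainly through Tsukuba libraries, those of April among them. Its April values, and its place among the April calls, are therefore a description. The next, CYE_r3.1SPE1_g013860.1, had 31.7 and 42.7 TPM in the Tsukuba trees, against 3.36 and 5.61 TPM in the Hokkaido trees (change 2.82, SE 0.58, adjusted p = 0.002 in limma, and 0.28 on the April libraries only). In both genes the 2 Tsukuba trees lay above the 2 Hokkaido trees, unlike the median of the set. The gene with the second largest yearly difference, CYE_r3.1SPA0_g033350.1, had 33.2 and 4.81 TPM in the Tsukuba trees, against 8.44 and 4.85 TPM in the Hokkaido trees, and did not pass (change 0.92, adjusted p = 0.41).

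**Figure D4:**
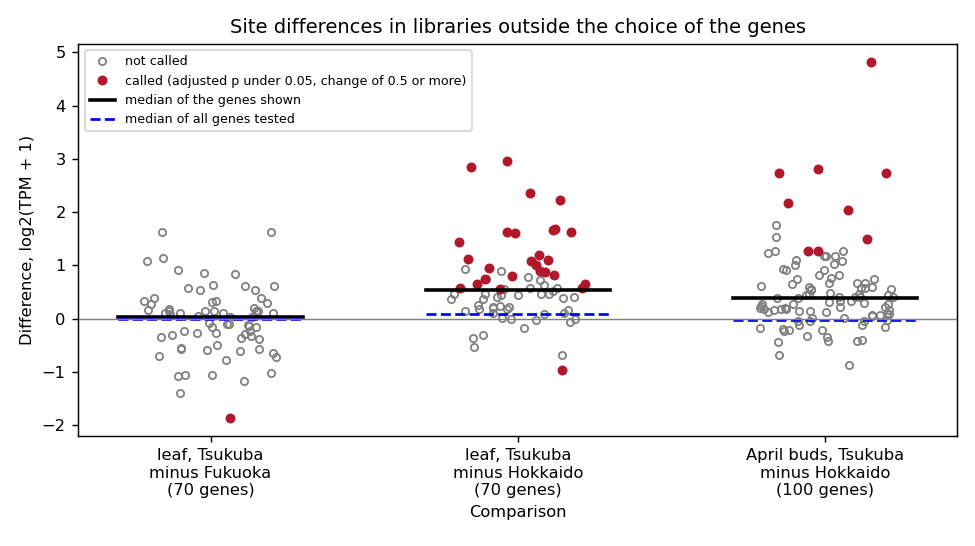
Difference in log2(TPM + 1) for the genes tested in leaves, Tsukuba minus Fukuoka and Tsukuba minus Hokkaido, and in April buds, Tsukuba minus Hokkaido; each circle is 1 gene, red ones are called, black lines are the medians of the genes shown and dashed blue lines those of all genes tested. The medians are 0.03, 0.54 and 0.39, and the calls number 1, 27 and 9.

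Whether the Tsukuba difference itself changed between seasons was tested on the change of each tree from June to August, as summer, to December to February, as winter. In both Fukuoka trees, Tsukuba tree #1 and Hokkaido tree #1, the library numbers of summer and winter buds fell into separate runs. In those trees season and run cannot be told apart. In tree #2 of Tsukuba and of Hokkaido the numbers of both seasons lay in 1 run. The bud libraries used also chose the genes, and the cap on the monthly range bears on seasonal change, so the counts and changes are a description from which nothing is read about the genes. The difference was larger in winter than in summer for 29 of the 100 genes, against 6.07% of all bud genes, and smaller for 2, against 3.25%. Among genes under the cap on the monthly range these shares were 4.83% and 3.01%. The median change was 0.72, against -0.03 over all bud genes. The count rested on Tsukuba tree #1, without which 1 gene passed, and counts without another tree ranged from 14, without Hokkaido tree #2, to 39, without Fukuoka tree #2. They were 18 without Tsukuba tree #2, 18 without Fukuoka tree #1 and 20 without Hokkaido tree #1.

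The largest increase was that of CYE_r3.1SPA0_g158300.1. In winter it had 37.0 and 32.3 TPM in the Tsukuba trees, against 7.18 and 7.98 TPM in the Fukuoka trees and 7.56 and 7.30 TPM in the Hokkaido trees. In summer it had 23.6 and 24.3 TPM in the Tsukuba trees, against 47.1 and 28.9 TPM in the Fukuoka trees and 10.7 and 12.4 TPM in the Hokkaido trees. Tsukuba was thus between the other sites in summer and above both in winter (change 2.24). CYE_r3.1SPE7_g003910.1 had the same order of site means, with 72.4 and 58.9 TPM in winter in the Tsukuba trees (change 2.06). The genes called with a smaller difference in winter were CYE_r3.1SPE6_g006410.1, with a change of -1.98, and CYE_r3.1SPA3_g006240.1, with -0.86, whose call held in 4 of 15 alternatives. CYE_r3.1SPE6_g006410.1 had 0.596 and 0 TPM in the Tsukuba trees in winter, and 11.2 and 5.79 TPM in summer. With October and November in place of winter, both changes had the other sign, at 1.13 and 1.48, and the count of calls over the set was 91.

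Averaged over the sites, winter was lower than summer for most of the genes that changed. From summer to winter 16 of the 100 genes rose, against 29.4% of all bud genes, and 55 fell, against 24.7% (limma on the change within each tree). These libraries also chose the genes, so the counts are a description. The limit on season and library numbers given above holds here too. Under the cap on the monthly range, 29.6% of all genes rose and 21.7% fell. The sites were unlike in this. The median change was -0.09 at Tsukuba, -1.72 at Fukuoka and 0.28 at Hokkaido, against 0.12, 0.23 and 0.03 over all bud genes. At Fukuoka 92 of the genes were below 0, while 60.7% of all bud genes were above 0. By tree the medians were 0.22 and -0.41 at Tsukuba, -1.91 and -1.33 at Fukuoka, and 0.32 and 0.20 at Hokkaido, so the Tsukuba trees lay on both sides of 0.

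**Figure D5:**
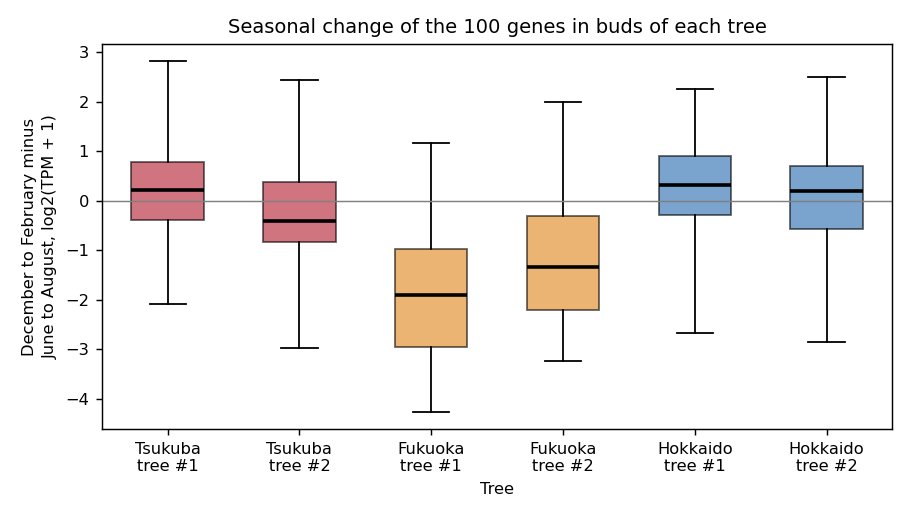
Winter (December to February) minus summer (June to August) level in log2(TPM + 1) of the 100 genes in buds of each tree; boxes span the quartiles, whiskers the full range and black lines the medians. The medians are 0.22 and -0.41 in the Tsukuba trees, -1.91 and -1.33 in the Fukuoka trees, and 0.32 and 0.20 in the Hokkaido trees.

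The largest winter rise was that of CYE_r3.1SPA6_g041210.1. It had 144 and 147 TPM in winter in the Tsukuba trees, 73.8 and 68.8 TPM in the Fukuoka trees and 68.1 and 54.9 TPM in the Hokkaido trees. In summer it had 35.3 and 34.4 TPM in the Tsukuba trees, 32.6 and 16.7 TPM in the Fukuoka trees and 22.4 and 23.1 TPM in the Hokkaido trees, so that all 6 trees were higher in winter (change 1.66). CYE_r3.1SPE0_g106120.1 followed (change 1.52). It belonged to a near-identical pair, and its winter level was 59.4 and 46.9 TPM in the Tsukuba trees, against 12.0 and 10.9 TPM in summer. The largest falls were those of CYE_r3.1SPA2_g032440.1 (change -2.47) and CYE_r3.1SPA2_g004340.1 (change -2.30). CYE_r3.1SPA2_g032440.1 was at 1.35 and 3.17 TPM in winter in the Tsukuba trees, against 4.81 and 8.25 TPM in summer, and at 22.0 and 22.8 TPM in October and November. At the other sites its October and November level was between 1.45 and 3.34 TPM.

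Most of the genes were far lower in leaves than in buds of the same trees. Over the 4 first collections, 88 of the 98 genes tested were lower in leaves, against 46.4% of all genes tested, and 3 were higher, against 17.6%. The median was -1.94, against -0.43 over all genes tested. The bud libraries of these dates also served the choice, those of Fukuoka on 29 August only in the filter on mean bud level. These counts are therefore a description. Leaf and bud RNA were extracted by different methods, so a tissue effect and an extraction effect cannot be told apart. The median by tree was -2.53 and -2.78 at Tsukuba, -2.25 and -1.64 at Fukuoka and -1.29 and -1.45 at Hokkaido, lower in leaves at every tree. Of the 100 genes, 30 had a mean leaf level under 1 TPM, against 16.7% of all bud genes. Another 66 were at 1 TPM or more in leaves but below their bud mean, with median levels of 4.42 TPM in leaves and 53.3 TPM in buds. The mean leaf level of the last 4 was at or above the bud mean.

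The largest difference between tissues was that of CYE_r3.1SPA3_g028710.1 (change -7.08). Its lowest, median and highest leaf values at Tsukuba were 0, 0.0438 and 0.559 TPM, against 85.0, 294 and 1046 TPM in Tsukuba buds of June to March. No leaf library of any site exceeded 4.28 TPM, and no bud library of June to March was below 14.2 TPM, so tissues did not overlap. CYE_r3.1SPE3_g028570.1 was similar (change -6.63), with bud medians of 246 TPM at Tsukuba, 49.0 TPM at Fukuoka and 44.7 TPM at Hokkaido. In the other direction, CYE_r3.1SPE8_g032400.1 was higher in leaves (change 1.76). Its median leaf level was 99.5 TPM at Tsukuba, 197 TPM at Fukuoka and 21.5 TPM at Hokkaido, and its median bud level was 26.2 TPM at Tsukuba, 9.17 TPM at Fukuoka and 10.9 TPM at Hokkaido. Tsukuba therefore had the highest median of the sites in its buds and not in its leaves. CYE_r3.1SPA2_g004340.1 was also higher in leaves (change 0.89), with a mean of 22.9 TPM over all leaf libraries, against 7.13 TPM over all bud libraries.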

How the data were processed

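RNA-seq of 66 bud and 24 leaf libraries was used. The authors deposited TPM per gene ID, with no counts, so depth per library is unknown. Per the submitters' processing notes, fastp 0.20.0, STAR 1.5.2 and StringTie 1.3.5 were used; for the genome build, the sources used here name none. Sites, trees, dates and tissues were taken from the labels.

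TPM was analysed as log2(TPM + 1), on which fold changes of low genes are understated. The site means of the rule used 60 bud libraries, leaving out April and the Fukuoka buds of 29 August. Libraries were averaged per tree, and tree values (for April, all bud libraries as site and date means, with no tree term) were fitted with limma 3.58.1 in R 4.3.3 over all genes with a mean of at least 1 TPM in the tissue. P-values are two-sided and adjusted by the Benjamini-Hochberg method over all genes tested; a call needed an adjusted p under 0.05 and a change of at least 0.5. The scripts were tested on simulated data.

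Genes were named by rule: the 4 with the largest difference, the 2 most abundant, the 2 on each side of the edge, the 2 largest called rises and falls per comparison, and the closest SPA and SPE pairs. The genes, lists and tests were chosen with earlier results of these data known. Alternatives were another pseudocount (0.1), other filters, scalings, limma options, a minimum change of 1, a replicate block, other months, April libraries only and leaving out each tree. Python 3.11.15 and pandas 2.3.3 were used for the rest.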

Additional observations from a re-analysis of the deposited data

Results flagged for a closer look

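As a description, the difference between Tsukuba and the other sites was called as changed between seasons for 31 of the 100 genes. It was larger in December to February than in June to August for 29, against 6.07% of all bud genes. For 2 it was smaller, against 3.25%. Without Tsukuba tree #1 the count was 1. The change was 2.24 for CYE_r3.1SPA0_g158300.1 and 2.06 for CYE_r3.1SPE7_g003910.1 on the log2(TPM + 1) scale. It was -1.98 for CYE_r3.1SPE6_g006410.1 and -0.86 for CYE_r3.1SPA3_g006240.1, and with October and November in place of winter these were 1.13 and 1.48. The libraries used also chose the genes, so these counts and values are a description from which nothing is read about the genes. In the Fukuoka trees, Tsukuba tree #1 and Hokkaido tree #1, season also went with the run of library numbers. What lies behind these changes was not tested.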

How the results depend on the processing

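Counts are of the genes of the set called in either direction. For leaf Tsukuba minus the mean of both other sites, 3 calls became 0 with a pseudocount of 0.1, 0 with no filter, 7 with the trend and robust options, and 0 to 10 when 1 tree was left out. For leaf Tsukuba minus Fukuoka, 1 call became 0 with a pseudocount of 0.1, 4 with a filter of 5 TPM, 0 with no filter, 0 with median scaling, 0 with quantile normalization, 4 with the trend and robust options, and 0 to 4 when 1 tree was left out. For leaf Tsukuba minus Hokkaido, 27 calls became 17 with a pseudocount of 0.1, 2 with no filter, 15 at a minimum change of 1, and 10 to 25 when 1 tree was left out. For April buds, 9 calls became 4 to 18 when 1 tree was left out, 0 with the April libraries only (chosen after seeing the data), and 8 to 11 under the other alternatives. For the seasonal change of the Tsukuba difference, 31 calls became 14 with a pseudocount of 0.1, 2 with no filter, 91 with October and November in place of December to February, and 1 to 39 when 1 tree was left out. With October and November in place of December to February, CYE_r3.1SPE6_g006410.1 reversed to 1.13 and CYE_r3.1SPA3_g006240.1 to 1.48. For winter minus summer, 71 calls became 39 at a minimum change of 1 and 67 to 77 when 1 tree was left out. For leaf minus bud, 91 calls were 69 to 94 under all alternatives. The cause of these moves was not tested, beyond the fewer samples or the stricter threshold of the setting itself. With 1 tree left out, the lone tree of a site is assumed to vary like the others.

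Over all genes, the calls for leaf Tsukuba minus the mean of both other sites were 1354, and 402 with a pseudocount of 0.1, 901 with a filter of 5 TPM, 0 with no filter and 585 at a minimum change of 1. For leaf Tsukuba minus Fukuoka they were 81, and 0 with the replicate block, either scaling, no filter or a pseudocount of 0.1, 138 with a filter of 5 TPM and 251 with the trend and robust options. For leaf Tsukuba minus Hokkaido they were 4749, and 3076, 1673 and 2317 with a filter of 5 TPM, no filter and a minimum change of 1. For April buds they were 2369, and 867 at a minimum change of 1 and 12 with the April libraries only. For the seasonal change of the Tsukuba difference they were 3744, and 1695 with a pseudocount of 0.1, 214 with no filter, 1725 at a minimum change of 1 and 10900 with October and November. For winter minus summer they were 21695, and 9936 at a minimum change of 1, and for leaf minus bud 25135, and 16309 with a filter of 5 TPM and 14544 at a minimum change of 1. With 1 tree left out they ranged over 0 to 2848, 0 to 404, 1426 to 4556, 939 to 1990 and 307 to 2825 for the first 5 comparisons in the same order.

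The replicate numbers of the labels mark different trees at each site and share only a number. The deviations of same-numbered trees correlated at -0.14 to 0.29 over genes in buds and 0.04 to 0.14 in leaves. With the replicate number as a block, the calls were 4 for leaf Tsukuba minus the mean of both other sites, 0 for leaf Tsukuba minus Fukuoka, 25 for leaf Tsukuba minus Hokkaido, 11 for April buds and 22 for the seasonal change of the Tsukuba difference. Winter minus summer and leaf minus bud were paired within trees and gave 71 and 91 calls; with no replicate block, which treats both values of a tree as separate, they gave 50 and 90.

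Of the 100 genes, 93 met the rule with median scaling, 79 with a pseudocount of 0.1, 96 without October, and 84 to 98 when 1 tree was left out. Chosen after seeing the data, the settings without September and October and with the nearest Fukuoka dates left 96 and 90. With unknown depth, no counting error can be given for low TPM values, and 2 trees per site limit every test.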
